A study of Mus musculus with 33 samples.

Results

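The sites bound by Oct4, Sox2 and Nanog in Uhrf1 knockout (KO) mouse embryonic stem cells (mESC) were compared with each other. The members were the 31963 summits of the 3 KO factor lists, of which the Oct4 list held 576, the Sox2 list 20755 and the Nanog list 10632, out of 52441 summits in the 6 factor lists of the series. A summit is the position at which the ChIP-seq reads of a bound site pile up highest, and its height is that pileup. KO summits of different factors within 100 bp of each other were merged, which left 25693 sites in 7 classes by the factors present.

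The series holds 33 ChIP-seq samples of wild type (WT) and Uhrf1 KO cells of the E14 line, as stem cells and as embryoid bodies, with antibodies to histone marks, the 3 factors and Uhrf1, and input libraries without an antibody. Used here were the 3 KO and the 3 WT mESC factor lists, the KO mESC domains of H3K4me3, H3K27me3 and H3K9me3, and the Uhrf1 windows of WT mESC. The KO cells were 1 mESC line without Uhrf1, a protein that binds H3K9me3 and hemimethylated DNA and recruits the maintenance methyltransferase Dnmt1. Both genotypes were undifferentiated and were kept in serum medium with leukemia inhibitory factor, on gelatin or on plates coated with embryonic fibroblasts, and no treatment was added. Each list came from 1 library, so there is no spread between replicates, and all 95% intervals (by Wilson's method for single shares and Newcombe's for differences of shares) cover counting error over sites only. A KO H3K4me3 domain lay at the transcription start site (TSS) of 7 of 8 mESC markers, all but Sox2, and of 2 of 6 fibroblast markers, Col1a2 and Thy1. Over all protein-coding TSSs the share was 54.8%. The deletion itself cannot be read from these lists.

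Oct4 and Sox2 are DNA-binding factors that pair on adjacent sequence, an octamer element and a Sox element, and with the homeodomain factor Nanog they form the core circuit of pluripotency. They bind their own genes and those of other stem cell regulators, mostly at enhancers, and shared binding of all 3 is known as a mark of active enhancers in these cells. H3K4me3 marks active promoters, whereas H3K27me3 and H3K9me3 mark repressed chromatin.

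The windows below show examples with a searched word or from repeated families, and do not cover the classes, since many sites hold no such word. Each runs 60 bp to either side of the merged summit on the plus strand of NCBIM37 (mm9), and capitals mark a searched word. The first pair is a site of all 3 factors at -1.99 kb from Pou5f1 (negative distances are upstream of the TSS), the gene of Oct4 (chr17:35640936-35641056), and a site of all 3 factors 40.5 kb from Sall1, a zinc finger regulator of stem cells (chr8:91527542-91527662). In both, the capitals hold the composite of the Sox and octamer elements, TGTNATGCA, read on the minus strand, with an overlapping Sox word (AACAAAG) at Pou5f1 and a separate homeobox word (TAATGG) at Sall1.
Pou5f1: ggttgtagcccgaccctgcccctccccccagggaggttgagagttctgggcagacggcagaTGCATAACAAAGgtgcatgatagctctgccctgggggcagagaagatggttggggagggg
Sall1: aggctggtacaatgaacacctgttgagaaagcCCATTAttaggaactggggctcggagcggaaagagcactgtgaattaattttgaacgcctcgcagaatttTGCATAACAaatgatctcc

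The next 3 are promoter sites. Sox2 and Nanog, without Oct4, were on the same composite at -65 bp from the Nanog TSS (chr6:122657382-122657502) and, overlapping a Sox word, at -579 bp from Rif1, a regulator of replication timing (chr2:51927718-51927838). The site at -146 bp from Mtf2, a subunit of the Polycomb complex PRC2, was the tallest Sox2-only promoter site whose central 31 bases occur once in the genome (chr5:108494542-108494662), and it holds a Sox word in a GC-rich stretch.
Nanog: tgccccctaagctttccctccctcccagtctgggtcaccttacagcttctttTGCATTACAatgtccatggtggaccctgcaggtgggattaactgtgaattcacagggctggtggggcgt
Rif1: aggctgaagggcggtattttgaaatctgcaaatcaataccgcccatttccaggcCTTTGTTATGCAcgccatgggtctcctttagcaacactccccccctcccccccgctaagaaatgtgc
Mtf2: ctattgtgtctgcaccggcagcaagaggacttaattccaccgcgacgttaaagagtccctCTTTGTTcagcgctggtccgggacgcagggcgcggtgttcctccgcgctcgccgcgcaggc

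The last pair shows repeated sequence, from families of sites linked by shared sequence. Of these windows, 1 is a site of Sox2 alone (chr14:44876802-44876922) and 1 holds an octamer (chr11:79790370-79790490).
Sox2-only family: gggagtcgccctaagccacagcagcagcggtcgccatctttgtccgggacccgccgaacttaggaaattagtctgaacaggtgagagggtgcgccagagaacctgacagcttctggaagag
Octamer family: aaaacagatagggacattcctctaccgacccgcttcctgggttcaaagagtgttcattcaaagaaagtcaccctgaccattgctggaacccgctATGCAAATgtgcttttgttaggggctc

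Some KO summits were crowded into a few places. A 1 Mb window counted as crowded when it held at least 5% of any KO list, which was so for 2 windows, at 47 to 48 Mb of chromosome 6 and at 19 to 20 Mb of chromosome 8. Together with unplaced sequence they held 211 of the Oct4 summits (36.6%), but 122 Sox2 summits (0.588%) and 209 Nanog summits (1.97%). Results on Oct4 are therefore given with and without these places, and the latter set holds 25243 sites.

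Most KO sites carried Sox2 alone. Of the 25693 sites, 14802 had Sox2 only (57.6%, interval 57.0 to 58.2), 4632 Nanog only (18.0%) and 230 Oct4 only. Sox2 and Nanog shared 5683 sites without Oct4 (22.1%, 21.6 to 22.6), which was the main form of joint binding. All 3 factors met at 241 sites (0.938%), whereas Oct4 with Sox2 alone was found at 29 sites and Oct4 with Nanog alone at 76. Outside crowded and unplaced sequence the last 3 numbers were 233, 15 and 31, so an Oct4 site with exactly 1 partner was rare there.

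Seen from each factor, 28.5% of Sox2 summits had a Nanog summit within 100 bp (5922 of 20755, 27.9 to 29.2) and 55.7% of Nanog summits had a Sox2 summit (54.8 to 56.6). Of Oct4 summits, 45.7% had a Sox2 summit (41.6 to 49.7), 54.2% a Nanog summit (50.1 to 58.2) and 39.8% had both (35.8 to 43.8). With the Sox2 and Nanog lists shortened to their 576 tallest summits, the number in the Oct4 list, 15.5% had both. Outside crowded and unplaced sequence these shares of the 365 remaining Oct4 summits were 66.6%, 71.0% and 61.1%, and 76.4% had at least 1 partner. Among the 207 Oct4 sites that were also on sequence whose central 31 bases occur once in the genome, 71.5% had both partners (65.0 to 77.2). This last share counts partners anywhere in the merged site, a wider rule than within 100 bp of the Oct4 summit.

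The WT lists held 12898 Oct4, 5190 Sox2 and 2390 Nanog summits, so they differed from the KO lists in length as well as in place. Between genotypes the pairing of Sox2 and Nanog differed by a few points and the presence of Oct4 by far more. In WT, 26.6% of Sox2 summits had Nanog and 57.8% of Nanog summits had Sox2, differences of KO minus WT of 1.92 percentage points (0.561 to 3.26) and -2.08 points (-4.26 to 0.120). With the Sox2 and Nanog lists shortened to the 2390 tallest summits, both differences became 5.27 points, and with summits above the list medians they were 7.10 and 2.87 points. Outside crowded and unplaced sequence the second was -5.18 points (-7.39 to -2.94), so its sign depended on which summits were kept. At sites where Sox2 and Nanog met, Oct4 was also present at 241 of 5924 KO sites (4.07%) and at 1308 of 1420 WT sites (92.1%), a difference of -88.0 points (-89.4 to -86.4). Sox2 and Nanog without Oct4 thus made up 5683 KO sites and 112 WT sites. With 576 Oct4 summits in KO, fewer of them were there to be counted as partners.

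**Figure D1:**
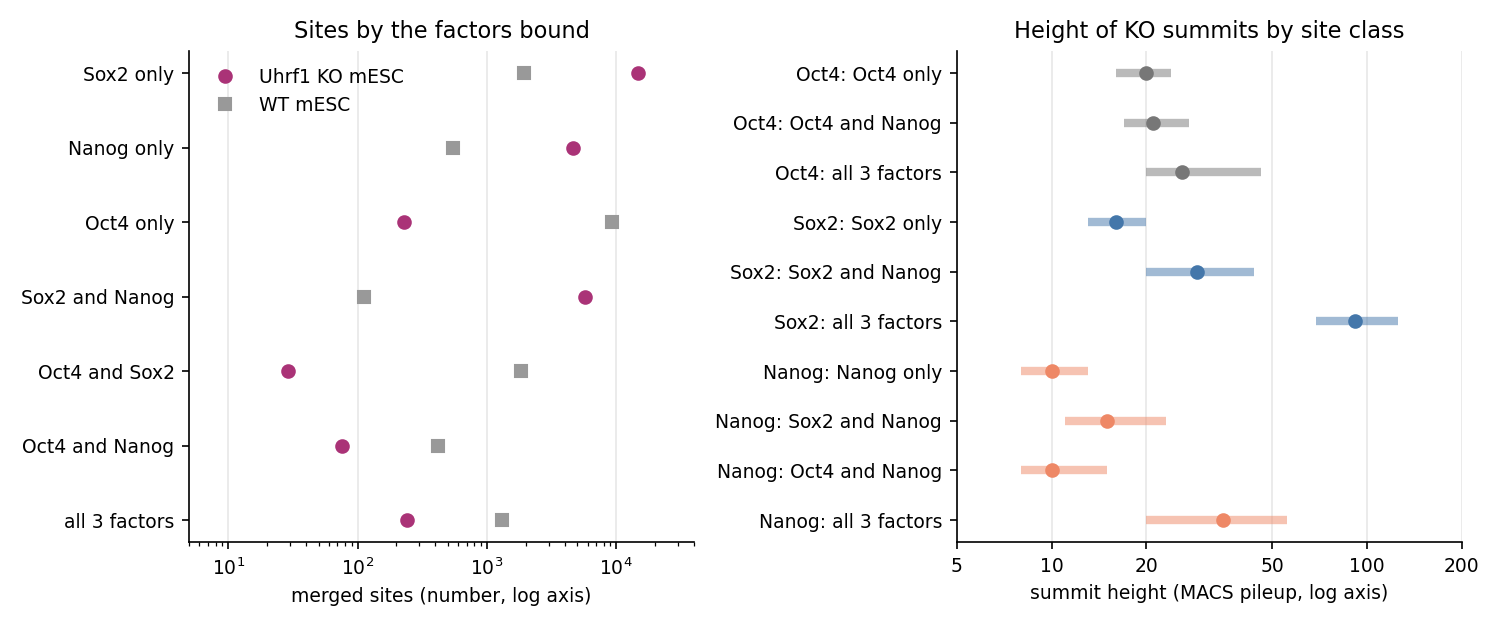
Left, number of merged sites of each class on a log axis in Uhrf1 KO mESC (circles) and WT mESC (squares); right, height of KO summits by factor and site class on a log axis, with points at the median and bars from the first to the last quartile. Sox2 and Nanog without Oct4 made up 112 WT and 5683 KO sites, and the median Sox2 height in KO stepped from 16 (Sox2 only) to 29 (with Nanog) to 92 (all 3 factors).

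Joint sites were the tall sites of the Sox2 and Nanog lists. Heights were compared within a list only, since depth differs between the libraries and their read totals were not used here. Sox2 summits had a median height of 16 reads where Sox2 was alone (quartiles 13 to 20), 29 with Nanog (20 to 44) and 92 with all 3 factors (69 to 126). The classes overlapped, with Sox2 summits of up to 571 reads alone and 529 with Nanog. Of Sox2 summits with a Nanog partner, 82.0% were above the list median of 18, against 32.5% of those without, a difference of 49.5 points (48.2 to 50.7), where the whole list gave 46.6%.

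Nanog summits behaved alike, with medians of 10 alone (8 to 13), 15 with Sox2 (11 to 23) and 35 with all 3 factors (20 to 56). Above the list median of 12 were 64.7% of Nanog summits with Sox2 and 30.7% of those without, a difference of 34.0 points (32.2 to 35.8), and 49.6% of the whole list. Where Nanog was joined by Oct4 but not Sox2, its median was 10, as low as alone. Outside crowded and unplaced sequence it was 12 at 31 such sites, against 10 alone. Summits of Oct4 spanned 11 to 100 reads, with a median of 20 alone (16 to 24) and 26 with both partners (20 to 46). Above their list median of 22 were 33.5% and 65.6% of these, where the whole Oct4 list gave 48.3%. The difference between three-factor and Oct4-only sites was 32.1 points (23.2 to 40.2), and 18.3 points (6.07 to 30.0) outside crowded and unplaced sequence. In that set the median Oct4 height was 21 alone, 26 with Nanog only and 26 with both partners. Among its sites whose central 31 bases occur once, the median was 24 alone (39 sites) and 23 with both partners (148 sites).

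When the Sox2 summits were put in 5 groups of equal number by height, 3.71%, 10.4%, 19.9%, 37.9% and 70.7% had Nanog, from the lowest to the tallest. For Nanog summits the share with Sox2 went from 32.2% to 85.1%. The WT lists had the same order, from 2.31% to 59.8% and from 44.4% to 79.9%. An Oct4 summit was within 100 bp of 231 of the 4151 tallest Sox2 summits (5.56%) and of 3 of the 4151 lowest (0.0723%).

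**Figure D2:**
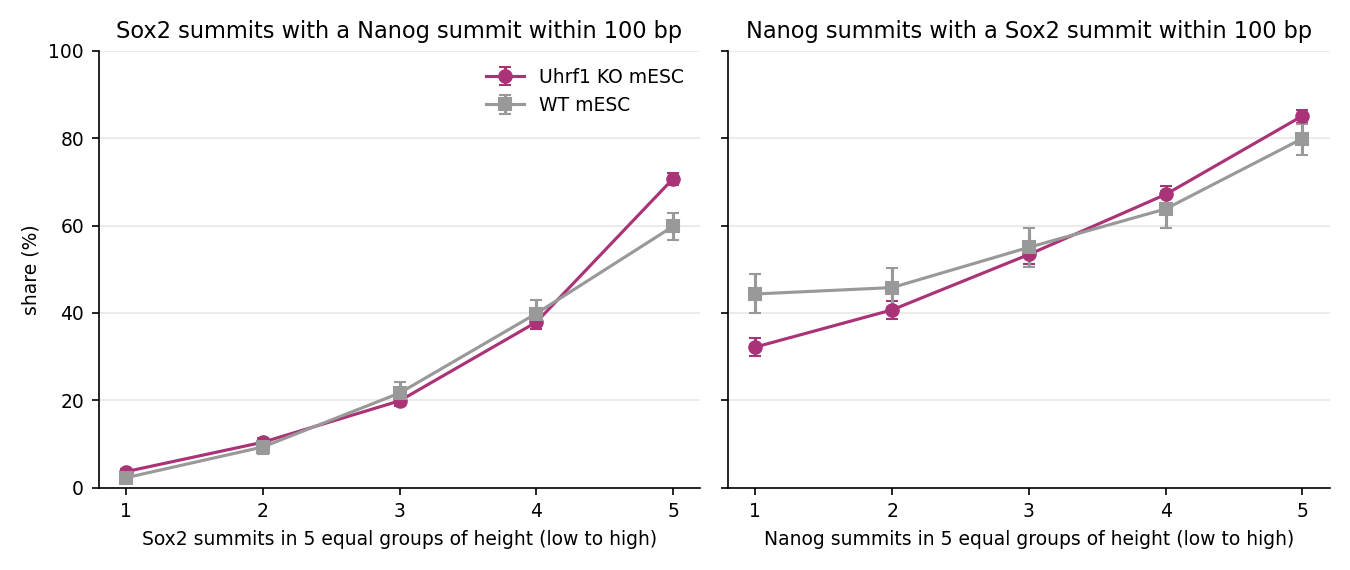
Share (%) of Sox2 summits with a Nanog summit within 100 bp (left) and of Nanog summits with a Sox2 summit (right) in 5 groups of equal number by summit height, for Uhrf1 KO mESC (circles) and WT mESC (squares), with 95% Wilson intervals as bars. Both shares climb with height in both genotypes, in KO to 70.7% and 85.1% in the tallest group.

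Heights of partners moved together. Across the 5666 Sox2 and Nanog sites outside crowded and unplaced sequence, Spearman's rho between the 2 heights was 0.56. At the 233 sites of all 3 factors it was 0.64 for Sox2 and Nanog, 0.43 for Oct4 and Sox2 and 0.20 for Oct4 and Nanog. These are descriptions across sites, whose summits share DNA, copy number and mapping. Summits also lay closer at sites of all 3 factors, with a median of 17 bp between Sox2 and Nanog (quartiles 4 to 39) against 30 bp where Oct4 was absent (14 to 53), and 55.6% against 36.6% within 20 bp. These distances are over all merged sites, crowded and unplaced sequence included. Sites of all 3 factors were also taller, and the distances were not compared at equal height.

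Sox2-only sites differed from the other classes in where they lay relative to genes. Of placed Sox2-only sites, 5487 of 14744 were within 1 kb of the TSS of a protein-coding gene (37.2%, 36.4 to 38.0), where such positions make up 2.31% of the genome. The share was 4.42% for Sox2 with Nanog (251 of 5673, 3.92 to 4.99), 3.904% for Nanog alone and 2.53% for all 3 factors (6 of 237, 1.17 to 5.41). Sox2 with Nanog was therefore at -32.8 points from Sox2 alone (-33.7 to -31.8), and for summits above the list median height the difference was -18.9 points. The median distance to the nearest TSS was 5.96 kb for Sox2-only sites, 28.0 kb for Nanog-only sites, 26.8 kb for Sox2 with Nanog and 31.2 kb for all 3 factors. Introns held 36.6% and intergenic DNA 57.3% of Sox2 and Nanog sites, against 33.8% and 62.9% of the sites of all 3 factors and 23.2% and 36.3% of the Sox2-only sites.

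KO H3K4me3 domains, which covered 7.36% of the genome and 54.8% of coding TSSs, held 54.1% of Sox2-only sites (53.3 to 54.9), 27.2% of Nanog-only sites (26.0 to 28.5), 33.8% of Sox2 and Nanog sites (32.6 to 35.1) and 43.5% of sites of all 3 factors (37.3 to 49.8). Most of the gap between the Sox2 classes went with promoters. Sox2 with Nanog minus Sox2 alone was -20.3 points over all sites (-21.7 to -18.8), -10.4 points among taller sites, and -3.11 points outside promoters (-4.67 to -1.53), where the shares were 31.7% and 34.8%. Outside promoters, sites of all 3 factors were 11.6 points above Sox2 with Nanog (5.21 to 18.1).

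H3K9me3 domains covered 42.4% of the KO genome and 38.1% of coding TSSs, and held 43.9% of Sox2-only sites, 44.6% of Nanog-only sites, 53.7% of Sox2 and Nanog sites (52.4 to 55.0) and 60.8% of sites of all 3 factors (54.4 to 66.8). Single binding by Sox2 or Nanog was thus near the genome share, and joint binding was above it by a margin larger than the counting error. Sox2 with Nanog exceeded Sox2 alone by 9.81 points (8.28 to 11.3), and by 14.5 points at promoters (8.14 to 20.6). With H3K9me3 domains limited to those above the median score, the difference of sites of all 3 factors from Sox2 with Nanog turned from 7.08 points (0.613 to 13.2) to -5.18. Both H3K4me3 and H3K9me3 domains were present at 32.1% of sites of all 3 factors, 23.2% of Sox2 and Nanog sites and 26.6% of Sox2-only sites.

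KO H3K27me3 domains, with 3.29% of the genome and 5.92% of coding TSSs, held 6.36% of Sox2-only sites, 4.99% of Nanog-only sites, 5.04% of Sox2 and Nanog sites and 5.49% of the sites of all 3 factors (3.23 to 9.16). Sox2 with Nanog minus Sox2 alone was -1.31 points (-1.99 to -0.602), and -0.228 among taller sites. Windows bound by Uhrf1 in WT cells make up 5.33% of the genome and 3.74% of coding TSSs. They held 3.74% of Sox2-only sites, 4.84% of Nanog-only sites, 2.82% of Sox2 and Nanog sites and 9.70% of sites of all 3 factors (6.55 to 14.1). Oct4-only sites were above these classes, with 122 of 172 placed sites in such windows (70.9%, 63.7 to 77.2), and 51 of 86 outside crowded windows (59.3%). Of the few sites of Oct4 with a single partner, only part were in such windows, with counts given below with repeated sequence.

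**Figure D3:**
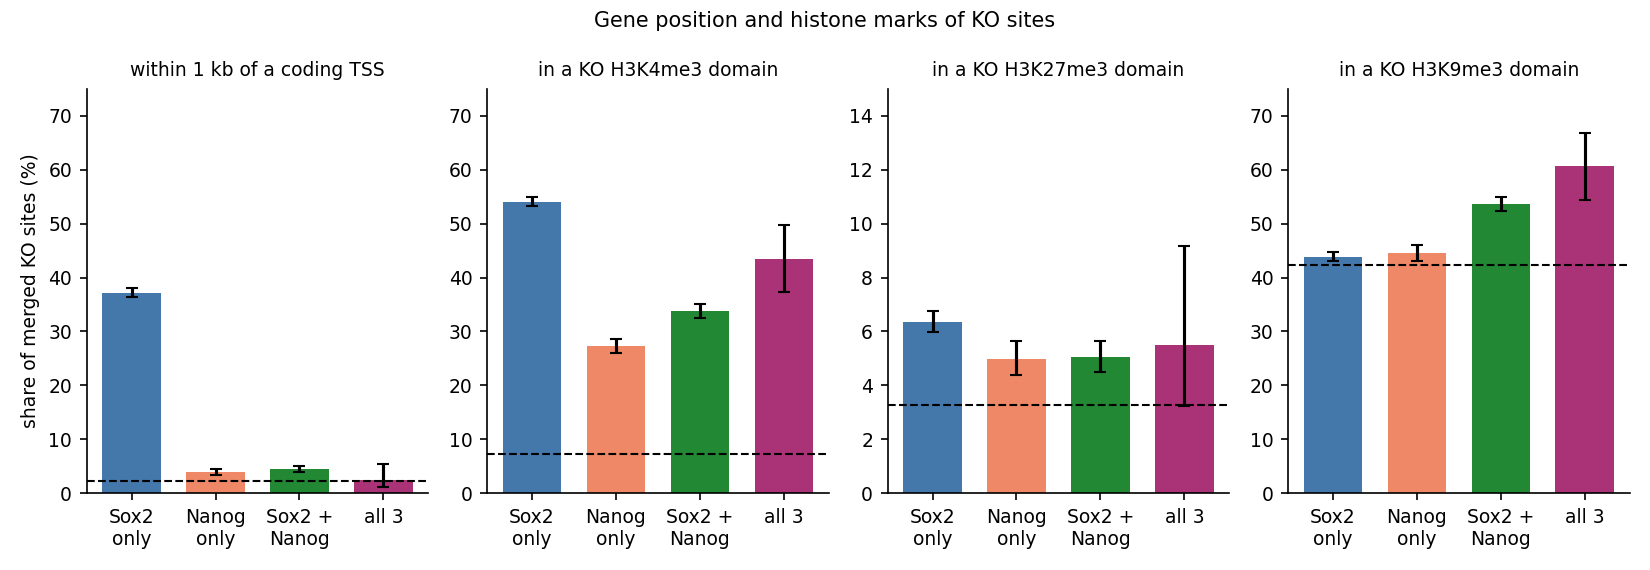
Share (%) of placed merged KO sites within 1 kb of a coding TSS and in KO domains of H3K4me3, H3K27me3 and H3K9me3, for Sox2 only, Nanog only, Sox2 with Nanog and all 3 factors; bars carry 95% Wilson intervals, dashed lines give the share of genome bases, and the H3K27me3 axis ends at 15%. Sox2-only sites lead for promoters (37.2%) and H3K4me3 (54.1%), and sites of all 3 factors lead for H3K9me3 (60.8%).

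Sequence words were counted within 100 bp of each placed site on both strands, beside the share of genome tiles and of coding TSS windows of the same length. The octamer word ATTTGCAT is found in 1.74% of tiles and 0.952% of TSS windows. It was in 3.06% of Sox2-only sites (2.79 to 3.35), 5.74% of Nanog-only sites (5.10 to 6.45), 9.32% of Sox2 and Nanog sites (8.60 to 10.1) and 10.97% of sites of all 3 factors (7.60 to 15.6). Sox2 with Nanog thus exceeded Sox2 alone by 6.27 points (5.48 to 7.09), by 4.46 points where only sites outside crowded windows with a central stretch found once were kept, and by 2.20 points among the taller sites. The composite TGTNATGCA, with 0.649% of tiles and 0.447% of TSS windows, was in 1.36%, 1.68%, 2.57% and 5.06% of the same 4 classes. Its shares within groups of Sox2 height, where this order did not always hold, are given below. Among the 148 three-factor sites with a central stretch found once, 16.2% had the octamer (11.1 to 23.0) and 8.11% the composite (4.70 to 13.6), above Sox2 with Nanog by 8.997 points (3.87 to 15.8) and 5.27 points (1.82 to 10.8).

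The Sox word AACAAAG (6.0% of tiles, 3.02% of TSS windows) was most frequent at Sox2 and Nanog sites, with 18.8% (17.8 to 19.9), against 9.65% of Sox2-only, 12.1% of Nanog-only and 11.8% of three-factor sites. Among sites with a central stretch found once, three-factor sites had 16.9% and Sox2 and Nanog sites 19.3%, a difference of -2.39 points (-7.69 to 4.55). The other Sox word, AACAATG (4.01% of tiles, 1.72% of TSS windows), was in 10.4% of Sox2 and Nanog, 6.08% of Sox2-only, 7.35% of Nanog-only and 5.91% of three-factor sites. The homeobox word TAATGG, of the kind Nanog binds, is in 8.69% of tiles and 3.60% of TSS windows. It was in 15.7% of Nanog-only sites (14.7 to 16.8), 12.6% of Sox2 and Nanog sites (11.7 to 13.5), 8.86% of three-factor sites and 4.43% of Sox2-only sites (4.11 to 4.77). Three-factor sites differed from Sox2 and Nanog sites by -3.71 points, with an interval that includes 0 (-6.83 to 0.678).

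Words for other regulators were also counted. TCAAGGTCA, bound by the orphan receptor Esrrb (0.423% of tiles, 0.156% of TSS windows), was in 1.51% of Sox2-only, 1.92% of Nanog-only, 2.45% of Sox2 and Nanog and 1.69% of three-factor sites. CCACACCC, of the Klf factors (1.19% of tiles, 2.36% of TSS windows), was in 3.46%, 4.34%, 4.04% and 1.27%. Its difference between Sox2 with Nanog and Sox2 alone, 0.578 points (0.00615 to 1.19), changed sign with a window of 200 bp either side and among taller sites. AGGGGGCGC, part of the element of the insulator protein CTCF, is in 0.0389% of tiles and 1.07% of TSS windows. It was in 215 Sox2-only sites (1.46%, 1.28 to 1.66), and outside promoters in 77 of 9257 (0.832%), but in 4 of 5673 Sox2 and Nanog sites (0.0705%), 4 of 4585 Nanog-only sites and 0 of 237 three-factor sites (up to 1.60%). A word match describes the sequence and is not by itself a bound site.

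**Figure D4:**
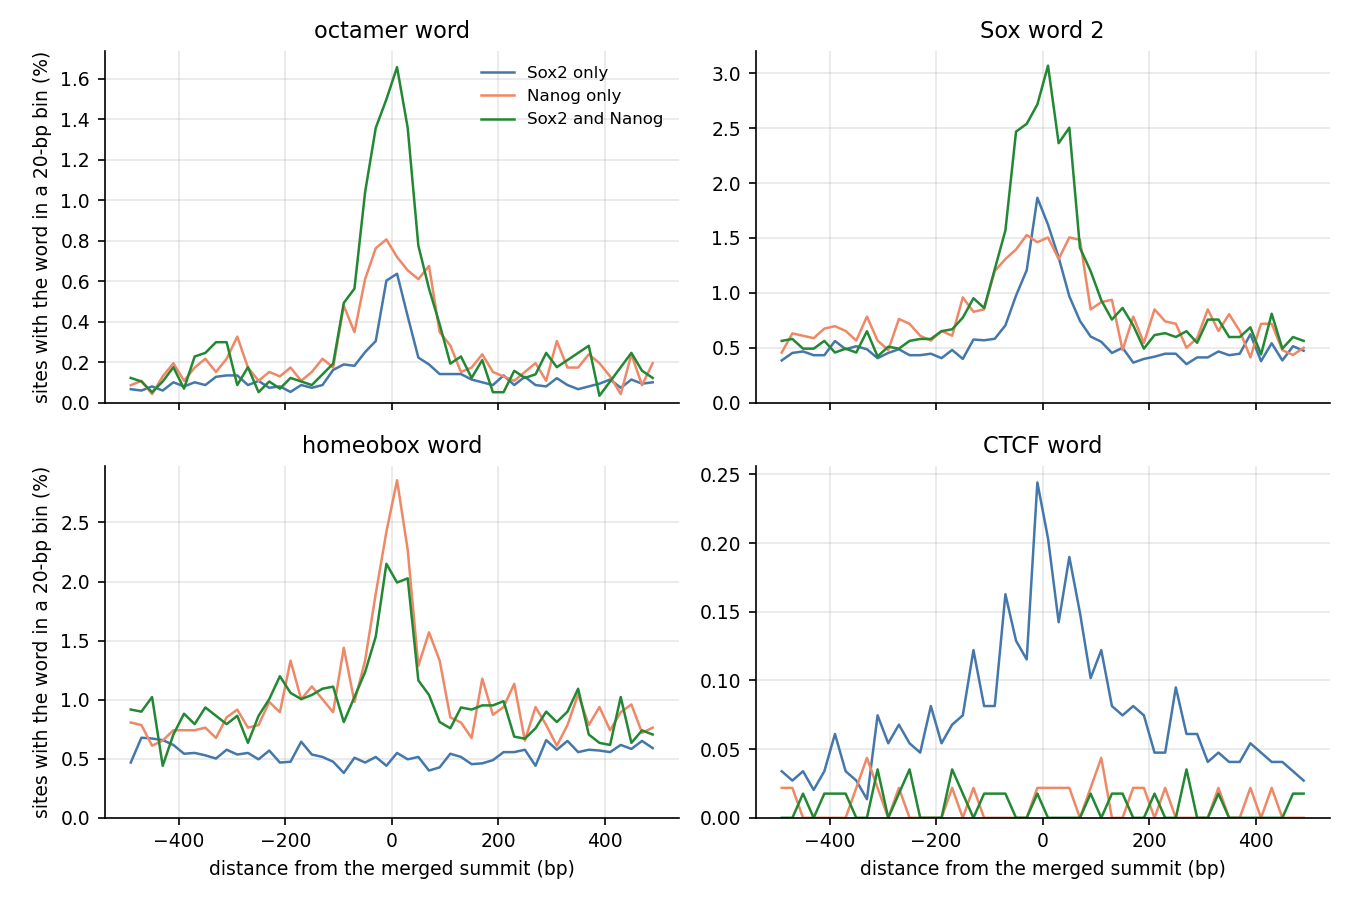
Share (%) of placed KO sites with a word in each 20-bp bin, by distance (bp) from the merged summit, for Sox2-only, Nanog-only and Sox2 and Nanog sites; sites of all 3 factors, 237 in number, are too few for bins and are not drawn. The octamer and Sox words peak at the summit, highest at Sox2 and Nanog sites, the homeobox word peaks where Nanog is present, and the CTCF word peaks at sites with Sox2 only (0.244% of sites in the bin centred at -10 bp).

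The promoter sites of Sox2 alone and of Sox2 with Nanog were on different DNA. At 5487 Sox2-only promoter sites the median GC content was 67.2% (quartiles 61.2 to 72.1) with 18 CpG per window, against 50.7% (45.8 to 57.7) with 4 CpG at the 251 promoter sites of Sox2 with Nanog and 41.8% in the genome. The octamer was in 0.765% of the former and in 10.8% of the latter, a difference of 9.99 points (6.72 to 14.4). AACAAAG was in 4.59% and 19.1%. Away from promoters the octamer was in 4.42% and 9.26%. The CTCF word was in 2.52% of Sox2-only promoter sites and in 1 of the 251.

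Among Sox2-only sites, taller sites had more of the words and were less often at promoters. From the lowest to the tallest of the 5 height groups, the octamer share was 1.78%, 2.16%, 3.35%, 4.22% and 6.78%, AACAAAG went from 5.43% to 18.6% and the promoter share from 45.2% to 16.0%. For Sox2 with Nanog the octamer share was 12.4%, 10.2%, 10.5%, 10.2% and 8.13%, with no such rise, while AACAAAG went from 11.8% to 20.6%. At the 146 Sox2 and Nanog sites with the composite, the Sox2 summit was a median of 25.5 bp from it and the Nanog summit 31.5 bp.

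Most sites with a single KO factor had no WT summit of any factor, as did 68.8% of all KO sites outside crowded and unplaced sequence. The WT Sox2 and Nanog lists were shorter than the KO lists, which by itself leaves most KO sites without a WT summit of their own factor. Outside crowded and unplaced sequence, no WT summit of Oct4, Sox2 or Nanog lay within 100 bp of 79.99% of Sox2-only sites (79.3 to 80.6) and 78.8% of Nanog-only sites (77.6 to 79.98), against 34.9% of Sox2 and Nanog sites (33.7 to 36.2) and 2.15% of sites of all 3 factors (0.920 to 4.92). A WT Oct4 summit was within 100 bp of 59.1% of Sox2 and Nanog sites (57.8 to 60.3), beside 35.2% with WT Sox2 and 24.9% with WT Nanog, an order that is also that of the lengths of the WT lists, and 23.5% had WT Oct4 as the only WT factor. At sites of all 3 factors, WT Oct4 was present at 90.1%, WT Sox2 at 93.1% and WT Nanog at 78.1%, and 170 of 233 had all 3 in WT too. Conversely, of the 1308 WT sites of all 3 factors, 1004 were Sox2 and Nanog sites in KO (76.8%, 74.4 to 79.0), 161 still had all 3 (12.3%, 10.6 to 14.2), 48 had Sox2 only, 58 Nanog only and 29 no KO factor. At the 86 Oct4-only sites, 66.3% had no WT factor and WT Nanog (23.3%) was seen more often than WT Oct4 (9.30%), with intervals that overlap.

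Sites with Oct4 were often on repeated sequence. The exact central 31 bases of a site were counted on both strands of the placed genome, and a site was called recurring when they occurred at least 2 times. Outside crowded windows, 54.7% of Oct4-only sites recurred (44.2 to 64.7) and 36.5% of sites of all 3 factors (30.6 to 42.8), against 13.7% of Sox2 and Nanog sites (12.8 to 14.6), 12.7% of Sox2-only and 10.4% of Nanog-only sites. At least 100 copies were found for 46 of 233 sites of all 3 factors (19.7%) and for 2.35% of Sox2 and Nanog sites. Of the 20 tallest summits, 18 recurred for Oct4, 6 for Sox2 and 4 for Nanog. Since the authors kept 1 alignment per read, a read from such a stretch was placed at 1 of several equal positions, and the part this had in the heights was not tested.

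**Figure D5:**
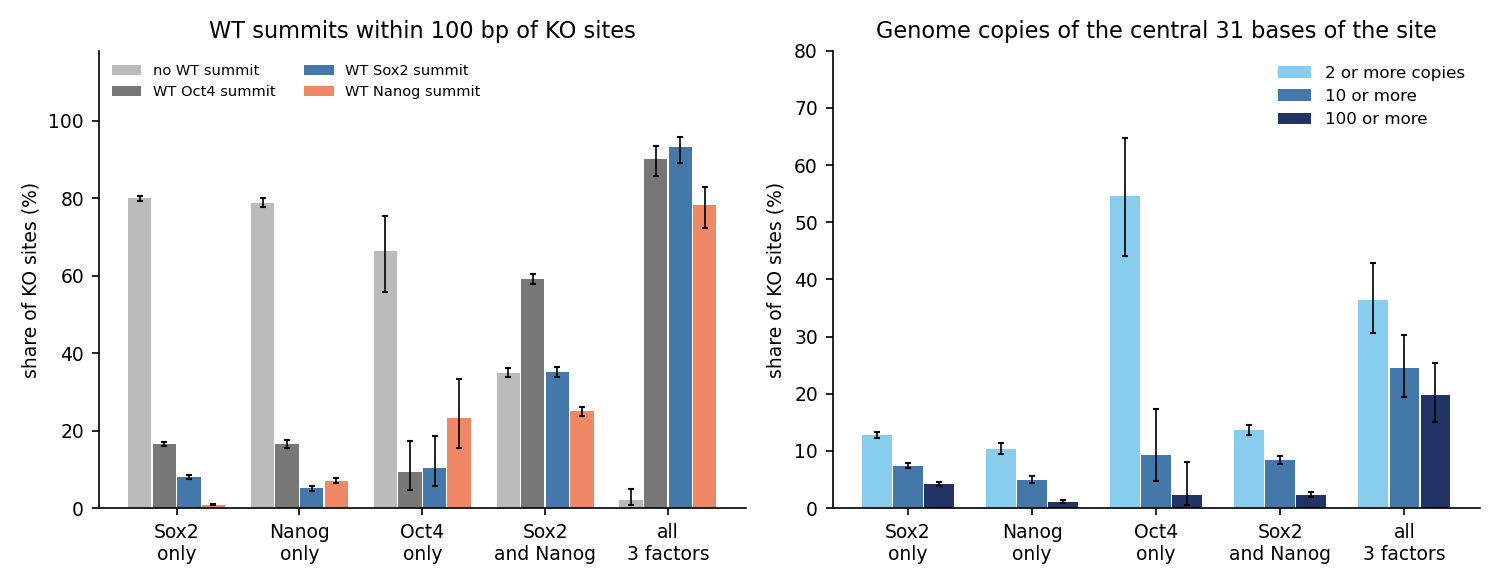
Share (%) of KO sites outside crowded and unplaced sequence, by class, with no WT factor summit or with a WT Oct4, Sox2 or Nanog summit within 100 bp (left), and with a central 31-base stretch that occurs at least 2, 10 or 100 times in the genome (right); bars carry 95% Wilson intervals. Single-factor sites mostly lack a WT summit (79.99% for Sox2 only), Sox2 and Nanog sites most often have WT Oct4 (59.1%), and recurrence at 2 copies is 54.7% at Oct4-only sites, while at least 100 copies are found for 19.7% of three-factor sites.

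Marks of the sites of all 3 factors split with recurrence. The 148 sites with a central stretch found once were in KO H3K4me3 domains at 54.7% (46.7 to 62.5) and in WT Uhrf1 windows at 2.03% (0.692 to 5.79). The 85 recurring ones had 25.9% (17.8 to 36.1) and 21.2% (13.8 to 31.01). Recurring Sox2-only sites likewise lay in Uhrf1 windows at 22.6%, against 0.934% of the others. At Oct4-only sites the window shares were 74.5% of 47 recurring and 41.0% of 39 other sites. Sites of Oct4 with Nanog alone had 10 of 20 recurring and 4 of 11 other sites in windows. For Oct4 with Sox2 alone these were 3 of 6 and 1 of 9.

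Of the repeated families given here, 2 were bound almost wholly by Sox2 alone and 1 by Sox2, Nanog or both. Other families, sites of all 3 factors included, are not described here. Sites whose central stretch had 100 to 10000 copies were linked into families when they shared sequence. The largest such family had 290 sites, 289 of them Sox2 only, of which the Sox2-only family window printed above is a member with 3416 copies of its centre, and 117 of the family were in WT Uhrf1 windows. Another had 133 sites, all Sox2 only. The family whose printed window holds the octamer had 77 sites, 27 of Sox2, 18 of Nanog and 32 of both. The share of its sites with that word is not given here.

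Tall sites by mean rank of height were compared by class. Of the sites of all 3 factors, that on chromosome 15 at 74917222, 24.9 kb from Ly6c2, had heights of 99 for Oct4, 513 for Sox2 and 98 for Nanog and a centre found once in the genome, and all 3 factors were there in WT too.

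The tallest Sox2-only site was on chromosome 17 at 39982219 with 571 reads, and close by at 39983705 was a tall Oct4-only site with 87. The tallest Nanog-only sites, with 228 and 226 reads, were at 98507317 and 98502802 on chromosome 2, near the TSSs of Gm10800 and Gm10801, and the tallest Sox2 and Nanog site (529 and 188) was at 98504042 between them, in a coding exon of Gm10801. None of these single-factor sites, nor the Gm10801 site, had a WT summit within 100 bp. The centre of the site at 98507317 occurs 26 times in the placed genome, and the centres of the others occur once. That count cannot show copies absent from the assembly, and their part in these heights was not tested. The tallest Oct4 and Nanog site (73 and 38) was on chromosome 6 at 3151496, close to the Sox2-only site of 258 reads at 3150941, and the tallest Oct4 and Sox2 site (57 and 82) was in an intron of Apool on chromosome X at 109484546.

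Genes of the pluripotency network were near joint sites. Each site was given to the nearest coding TSS. All 39 annotated genes of a list of core and naive pluripotency regulators were nearest to a KO site, 35 (89.7%) to a site of 2 or 3 factors and 7 (17.9%) to a site of all 3. Over all 22238 coding genes the shares were 49.5%, 17.8% and 1.01%. Within 50 kb of the TSS, 34 of the 39 had a site of 2 or 3 factors, against 13.6% of all genes.

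The 7 genes with all 3 factors were the regulators Pou5f1, Sox2, Esrrb, Prdm14 and Sall1, the Nodal inhibitor Lefty1 and the PRC2 cofactor Jarid2. The Pou5f1 site at -1.99 kb had heights of 38 for Oct4, 191 for Sox2 and 80 for Nanog. The Lefty1 site at -10.1 kb had 28, 181 and 98, the Esrrb site in its intron, 28.9 kb from the TSS, had 29, 139 and 38, and the Sall1 site had 30, 134 and 60. In these 4 sites Sox2 was above its three-factor median of 92, and Oct4 was 28 to 38. The Prdm14 site, 52.5 kb from the TSS, had 18, 114 and 27, and the Sox2 site, 18.5 kb from the TSS, had 24, 71 and 21. The Jarid2 site in an intron had 46, 80 and 17, its centre occurs 2 times in the genome, and of the WT factors only Sox2 was there. Jarid2 had most sites of the list, 21, of which 8 had 2 factors. The Sox2 gene had 19, of which 9 had 2 factors, and at 107 kb from the TSS 1 of these was Oct4 (17) with Nanog (62).

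Sox2 with Nanog marked the other 28 genes. At Nanog itself the promoter site printed above had 95 for Sox2 and 22 for Nanog, and in WT it had Oct4 and Sox2. At Rif1 the heights were 207 and 50, and all 3 WT factors were present. Socs3, a feedback inhibitor of cytokine signalling, had the tallest Sox2 summit among the joint sites of the list, 261 with a Nanog height of 60, at -6.47 kb. Klf4, 1 of the original reprogramming factors, had 129 and 97 at 67.4 kb, and Klf2 had 125 and 65 at 15.4 kb. Dppa3 had 110 and 23 at -1.73 kb, the Nodal antagonist Lefty2 99 and 40 at -4.24 kb, and the Nodal coreceptor Tdgf1 87 and 65 at -1.36 kb. Zfp42 (Rex1) had 73 and 58 at -13.8 kb, and the dioxygenase Tet1 had 42 and 33 in its intron. Promoter sites of the same class were found at Fbxo15 (61 and 32), Spp1 (54 and 27), the RNA-binding regulator Lin28a (54 and 9), the orphan receptor Nr5a2 (49 and 17), Sall4 (42 and 27) and Dppa2 (27 and 14). The Dppa2 site had no WT factor, whereas all 3 were at Fbxo15 and Sall4, Oct4 and Sox2 at Lin28a and Nr5a2, and Oct4 at Spp1. The lowest by Sox2 height among the leading sites of each gene were those of Gbx2 (14 and 13), Nr0b1 (18 and 9) and Dnmt3l (20 and 6).

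The other lists had smaller shares of genes with joint sites than the 89.7% of pluripotency genes, beside 17.8% of all genes. Of neuroectoderm genes 12 of 19 (63.2%) were nearest to a site of 2 or 3 factors, among them Otx2 with 6 such sites and Pax6, whose site of all 3 factors 2.01 kb from the TSS had 16, 48 and 34. Of endoderm genes 7 of 15 (46.7%) had 1, with a three-factor site (59, 112 and 47) 44.1 kb from Lama1, of mesoderm genes 8 of 20, and of trophoblast genes 5 of 10. Within 50 kb of the TSS the counts were 10 for neuroectoderm, 5 for endoderm, 3 for mesoderm (15%) and 2 for trophoblast genes (20%), of which the mesoderm share was near the 13.6% of all genes. Subunits of COMPASS, which deposits H3K4me3, and of PRC2, which deposits H3K27me3, had 10 of 18 (55.6%). Rbbp5, a core COMPASS subunit, had all 3 factors (18, 80 and 93) at -6.14 kb, and Suz12 of PRC2 had Sox2 and Nanog (54 and 23) at -12.3 kb. The 43 sites given to Ezh2, the PRC2 methyltransferase, were the most of this list, and without the crowded window on chromosome 6 the list counted 9. DNA methylation genes had joint sites at 3 of 12, and Uhrf1 itself had a single Sox2-only site (23) at -119 bp. Of 14 annotated genes of the 2-cell stage, 2 had any site and 1, Zfp352, a joint one, 503 kb from its TSS. Within 50 kb of the TSS the joint count of this list was 0.

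The 132 placed Oct4 sites outside crowded windows without the full set of partners included 27 nearest to Gm15319, 10 to Sfi1 and 6 to Gpm6a. No gene was nearest to more than 3 sites of all 3 factors.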

How the data were processed

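ChIP-seq lists of Uhrf1 KO and WT mESC were used, 1 library per group. The authors mapped reads to mm9 with Bowtie2 2.1.0, keeping 1 alignment per read, and called factor summits with MACS (1 list per library, not pooled). Whether an input entered these calls is not given in the sources used here. The deposited signal of a summit is its height in whole reads. RSEG histone domains were deposited by the authors with a mean count of reads in each bin (signal) and with a score, used here only to keep domains above the list median score, and Uhrf1 windows of 10 kb with positions and no score.

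Summits within 100 bp, the distance the authors used, were merged by single linkage with Python 3.11.15, NumPy 2.4.6, SciPy 1.17.1, Numba 0.67.0 and Matplotlib 3.10.9. Coordinates are 1-based on NCBIM37. None of 51866 placed summits lay past a chromosome end. Genes are GENCODE protein-coding genes, and a promoter is within 1 kb of a TSS. Merged calls were checked on simulated sites with close summits and wide gaps between sites. That check did not cover chained or neighbouring sites. With 1 library per group no test across replicates could be made and no p-value was computed.

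The members and gene lists were chosen with earlier results of these data known. Named sites were the 5 tallest of all 3 factors and the 2 tallest of each other class outside crowded and unplaced sequence, by mean height percentile. Named genes were list members, at most 25 in full, pluripotency genes with joint sites first. Other genes were named after their values were seen. Alternatives were other distances, taller summits, lists of equal number, other windows and domains, and no crowded windows. Leaving out recurring sites was chosen after seeing the data. Of the named sites, 1 group on repeated sequence is not reported here.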

Additional observations from a re-analysis of the deposited data

How the results depend on the processing

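Of 238 values under alternative settings, 138 stayed within their interval or, for counts, within the set limit, 97 moved further, and 3 changed the sign of a difference whose interval excluded 0. With summits within 50, 200, 500 and 1000 bp, Sox2 summits had Nanog at 21.1%, 31.3%, 32.4% and 33.3%, Nanog summits had Sox2 at 41.1%, 61.2%, 63.7% and 67.1%, and Oct4 summits had both at 28.0%, 45.3%, 52.3% and 59.9%. A WT summit of a KO factor was at 38.6%, 43.0% and 43.9% of Sox2 and Nanog sites with 50, 500 and 1000 bp, and at 99.2% of three-factor sites with 500 and 1000 bp. Only summits above the list median height gave 36.0% (Sox2 with Nanog), 66.0% (Nanog with Sox2) and 51.8% (Oct4 with both), 8042, 3374 and 148 sites of 1, 2 and 3 factors, KO minus WT differences of 7.10 and 2.87 points, and a WT summit at 58.1% of Sox2 and Nanog and 99.3% of three-factor sites. Between Sox2 with Nanog and Sox2 alone they gave -18.9 points for promoters, -10.4 for H3K4me3, -0.228 for H3K27me3, 8.05 for H3K9me3, 2.20 for the octamer and -0.684 for the Klf word. Lists of equal number gave 47.6% for both pairings of Sox2 and Nanog, 15.5% of Oct4 with both, 943, 253 and 93 sites, and KO minus WT differences of 5.27 points. Without crowded windows 61.1% of Oct4 summits had both partners, and with a central stretch found once 71.5% did, counted by merged site. The latter setting gave 148 three-factor sites and differences of -36.7 (promoters), -23.6 (H3K4me3) and 4.46 points (octamer). A TSS window of 500 bp gave -30.2 points. Domains above the median score gave -15.0 (H3K4me3) and 7.77 points (H3K9me3), and -5.18 for H3K9me3 at three-factor against Sox2 and Nanog sites. Words within 50 bp gave 4.38 points for the octamer, and within 200 bp -0.0186 for the Klf word. The causes of these moves were not tested. The comparison of heights within height groups was not run, since the grouping fixes its outcome. No paired analysis was possible because each group was 1 library and no replicate numbers were shared. Heights were not scaled by library depth and were not compared between lists.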
